A study of Mus musculus with 35 samples.

Results

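The 37 genes of the mouse mitochondrial genome were examined in the RNA of 6 adult tissues. All libraries came from adult C57BL/6J mice, an inbred strain, with no treatment and no altered genotype named in the labels. Brain, cerebellum, heart and colon were taken from both sexes, ovary from females and testis from males, with 3 libraries for each tissue and sex except male heart, which had 2, so that 29 libraries were compared. Ribosomal RNA was depleted before strand-specific libraries were made, and long-read Iso-seq of mouse tissue enters here only through the transcript annotation built from it. The members are all rows of the count table that lie on the mitochondrial chromosome, 29 of 55356 rows: 5 Iso-seq loci, 2 rRNA genes and 22 tRNA genes. None of the 13 coding genes had a row of its own, and all 13 lie inside Iso-seq loci.

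The mitochondrial genome encodes core subunits of the respiratory chain and of ATP synthase, and the rRNAs and tRNAs needed to translate them inside the organelle. Both of its strands are transcribed into long RNAs that carry many genes, and most coding regions are freed when the tRNAs between them are cut out. Tissues that depend on oxidative metabolism, heart muscle above all, are known for a high content of mitochondria and of their RNA.

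What the rows can resolve follows from the annotation. PB.13055 (MT:1025-11544, plus strand, mm10) carries 10 coding genes: mt-Nd1, mt-Nd2, mt-Nd3, mt-Nd4 and mt-Nd4l of complex I, mt-Co1, mt-Co2 and mt-Co3 of cytochrome c oxidase, and mt-Atp6 and mt-Atp8 of ATP synthase. PB.13056 (MT:11742-15288, plus strand) carries mt-Nd5 of complex I and mt-Cytb of complex III. PB.13057 (MT:10312-14139, minus strand) carries mt-Nd6, the coding gene of complex I on that strand. PB.13058 (MT:15423-16188, minus strand) holds no annotated gene and lies next to mt-Tp in the non-coding control region. PB.13054 (MT:70-1022, plus strand) lies inside mt-Rnr1, the 12S rRNA, and had no count in any library. The value of a locus is a sum over its genes and the bases between them, so no value of PB.13055 or PB.13056 belongs to a single coding gene, and PB.13057 reaches beyond mt-Nd6, its only coding gene.

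Of the 29 rows, 12 held counts and 17 held none. All 12 ENSEMBL rows with at least 90 percent of their bases inside an Iso-seq locus of the same strand were at 0, among them mt-Rnr1 and mt-Rnr2, the 16S rRNA. Of the other 12 ENSEMBL rows, all of them tRNA genes, 8 held counts and 4 (mt-Tf, mt-Th, mt-Ts2 and mt-Tl2) held none. Opposite-strand overlap went with counts in one orientation and not in the other. Of 7 minus-strand tRNA genes wholly opposite a plus-strand locus, 6 had counts, while the other, mt-Te, lies inside the minus-strand PB.13057. The plus-strand genes mt-Th, mt-Ts2 and mt-Tl2 lie wholly opposite PB.13057, and none of them had a count. The source of these zeros was not tested. The zeros of the 2 rRNAs and of the tRNAs inside same-strand loci thus go together with the overlap, and they give no level for these genes. A count of 0 would otherwise allow up to 3 counts, which is 0.255 CPM (the count divided by the library's total count, times 1000000) in the shallowest library and 0.0829 CPM in the deepest.

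The tRNA genes with counts are short, and 7 of them carried the comparisons below. Their sequences are shown because these 7 are the members in the tests that the table resolves to 1 gene. They are given 5′ to 3′ on the sense strand, from GENCODE M21 transcripts on GRCm38, with the anticodon in capitals.
mt-Tq (glutamine, MT:3772-3842, minus strand): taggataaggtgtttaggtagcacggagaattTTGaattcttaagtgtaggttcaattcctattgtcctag
mt-Ta (alanine, MT:5018-5086, minus strand): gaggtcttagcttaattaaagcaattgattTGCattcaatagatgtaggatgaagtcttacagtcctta
mt-Tc (cysteine, MT:5192-5257, minus strand): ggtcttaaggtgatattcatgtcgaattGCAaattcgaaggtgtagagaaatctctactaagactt
mt-Ty (tyrosine, MT:5260-5326, minus strand): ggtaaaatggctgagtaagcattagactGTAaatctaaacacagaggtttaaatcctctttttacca
mt-Ts1 (serine, MT:6870-6938, minus strand): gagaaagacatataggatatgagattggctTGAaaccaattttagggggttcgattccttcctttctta
mt-Tt (threonine, MT:15289-15355, plus strand): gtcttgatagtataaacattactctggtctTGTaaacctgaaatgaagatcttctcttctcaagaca
mt-Tp (proline, MT:15356-15422, minus strand): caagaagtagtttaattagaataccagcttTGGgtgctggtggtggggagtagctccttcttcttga
They are 66 to 71 bases long. All 5 positions of the stem beside the anticodon loop could pair in 6 of them, and 4 of 5 could in mt-Tt. A count on such a row does not tell a mature tRNA from a longer RNA that covers it.

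The Iso-seq annotation gives the ends of its transcript models. Whether an end inside a gene is an end of an RNA in the cell was not tested. The annotation holds 49 transcript models on the mitochondrial chromosome, 30 in PB.13055, 14 in PB.13056, 3 in PB.13054 and 1 in each of PB.13057 and PB.13058. Their lengths ran from 340 to 4164 bases with a median of 1252. Of the 49, 29 (59.2%) had a 5′ end within 3 bases of the edge of an annotated gene and 24 (49.0%) had a 3′ end there, where 1.99% and 1.98% of positions lie that near to an edge. Both ends met an edge in 11 models. The models are not independent, since several share an end.

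Several models cover 1 or 2 coding genes. One (MT:2751-3705) covers mt-Nd1, the next (MT:3775-4949) begins at the edge of mt-Ti and runs across mt-Tm and mt-Nd2, and one (MT:7766-8605) covers the pair mt-Atp8 and mt-Atp6. One (MT:9877-11544) covers mt-Nd4l and mt-Nd4, and one (MT:8377-9391) begins 230 bases before mt-Co3 and reaches over it. In all, 24 models spanned no whole coding gene, 17 spanned 1, and 8 spanned 2 or more. The widest (MT:7380-11543) ran across mt-Atp8, mt-Atp6, mt-Co3, mt-Nd3, mt-Nd4l and mt-Nd4, another (MT:5318-8607) ran from mt-Co1 through mt-Atp6, and one more (MT:1025-4948) joined the 16S rRNA to mt-Nd1 and mt-Nd2. On PB.13056, 9 of the 14 models began at the same base, 11742. One of the 49 models had 2 exons.

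Library totals lay between 11742417 and 36194255 counts, with a median of 24403774. Of 27 tissue markers, 25 were higher in every library of their tissue than in any other library, the exceptions being Snap25 and Des. Within their tissues, 2 libraries stood apart. Female heart 3 held 3661 CPM of the atrial markers Nppa, Myl7 and Sln, against 38.2 to 123 in the other 4 heart libraries, 1492 CPM of the fat markers Adipoq, Plin1 and Cidec, against 0.123 to 5.55, and 7190 CPM of the nuclear RNAs Malat1 and Neat1, against 1518 to 1784. Its sum of the heart markers Myh6, Actn2, Tnnt2 and Ryr2 was 15610 CPM, against 30680 to 39220. Ovary 1 held 20300 CPM of Malat1 and Neat1, against 6925 and 8369 in ovaries 2 and 3. The red cell markers Hba-a1, Hba-a2, Hbb-bs and Hbb-bt summed to 4503 to 15560 CPM in heart and to at most 2286 CPM in any other tissue. The part of these differences in the results was not tested. The numbers of rows called in heart and ovary are also given without each library. Each of the 6 ratios below still differed over the tissues without either of these 2 libraries, and the difference between heart and testis for mt-Tq to PB.13057 moved from 3.30 to 3.46 without female heart 3.

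The mitochondrial rows took the largest share of the library in heart and the smallest in the gonads. The share was 13.6% in female heart 1, 9.72% in female heart 2, 7.41% in female heart 3, 12.1% in male heart 1 and 13.3% in male heart 2, with a mean of 11.2% ± 2.63 (SD, n = 5). All 5 lay above the highest of the other 24 libraries, which was 6.26%. In colon the share ran from 2.35% to 6.26% with a median of 3.61% (n = 6), in brain from 2.40% to 4.07% with a median of 3.26% (n = 6), and in cerebellum from 2.46% to 5.17% with a median of 2.82% (n = 6). These 3 tissues overlapped one another. In ovary the libraries held 1.77%, 0.789% and 1.08%, and in testis 0.787%, 0.964% and 0.802%. Ovary and testis overlapped each other and lay below every library of the other 4 tissues. As these are bulk samples, fewer cells of a type cannot be told apart from less RNA per cell. Without female heart 3 the heart mean was 12.2%, and without ovary 1 the ovary mean was 0.932% in place of 1.21%.

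**Figure D1:**
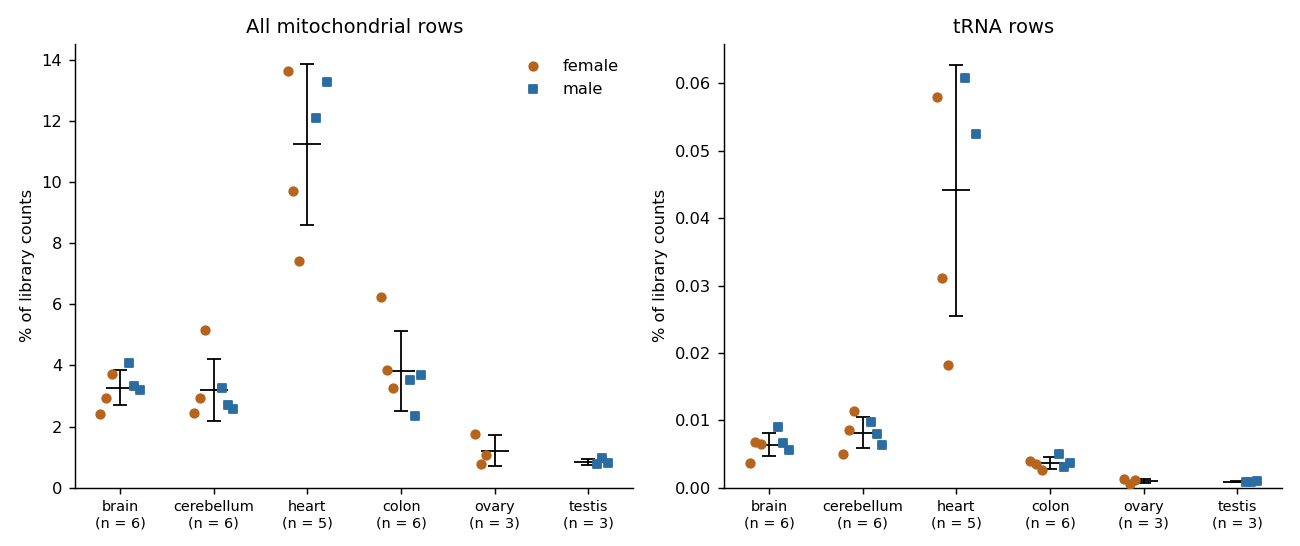
Share of library counts on all mitochondrial rows (left) and on the tRNA rows alone (right), in percent, by tissue; each point is 1 library, circles are female and squares male, and bars give the mean and SD of the tissue. The 5 heart libraries, from 7.41% to 13.6%, lie above all others, and the gonads lie lowest.

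The tRNA rows made up a small part of these counts and ranged more widely between tissues. Of the 22 tRNA rows 14 were at 0, as were the 2 rRNA rows, so their share does not measure the tRNA part of mitochondrial RNA. The summed share of the tRNA rows in the library was 0.0580%, 0.0311% and 0.0182% in female hearts 1 to 3 and 0.0609% and 0.0525% in male hearts 1 and 2. No library of another tissue passed 0.0114%. Testis held 0.000840%, 0.000802% and 0.000985%, and ovary 0.00130%, 0.000619% and 0.00113%. Within the mitochondrial counts, the tRNA rows amounted to 0.378% ± 0.0989 (SD, n = 5) in heart, 0.260% ± 0.0425 (n = 6) in cerebellum, 0.193% ± 0.0296 (n = 6) in brain, 0.104% ± 0.0199 (n = 3) in testis, 0.102% ± 0.0295 (n = 6) in colon and 0.0855% ± 0.0168 (n = 3) in ovary. The lowest heart library, at 0.245%, lay within the range of cerebellum, from 0.201% to 0.302%.

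Rows were compared with one another as CPM per kilobase of the bases that no other gene of the strand shares. On this scale, PB.13055 was the highest row in each tissue, with a mean level of 10295 ± 2546 in heart (SD, n = 5) and 689 ± 63.5 in testis (n = 3). PB.13056 had the second highest mean in each tissue, at 4426 ± 1025 in heart and 426 ± 74.5 in testis, and the minus-strand PB.13057 held 2663 ± 461 and 320 ± 54.0. The control-region locus PB.13058 was lower, at 730 ± 207 in heart and 69.3 ± 6.54 in testis. Among the tRNA genes, mt-Tq was highest in each tissue except testis, where mt-Ty was, and in heart its level of 3830 ± 1706 exceeded the mean of PB.13057. The levels of mt-Ty (1293 ± 697) and mt-Ta (560 ± 198) in heart came next. The lowest tRNA means in heart were those of mt-Tp (48.9 ± 27.0) and mt-Tt (110 ± 61.5), while mt-Tn, for asparagine, named after its values were seen, had 8 counts in female heart 1 and 3 in each male heart and none in the other 26 libraries. The per-kilobase level of mt-Tq rests on a division by 71 bases. Before this division the heart mean was 272 CPM for mt-Tq and 10010.5 CPM for PB.13057. Whether reads that reach past such short rows raised their per-kilobase levels was not tested.

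**Figure D2:**
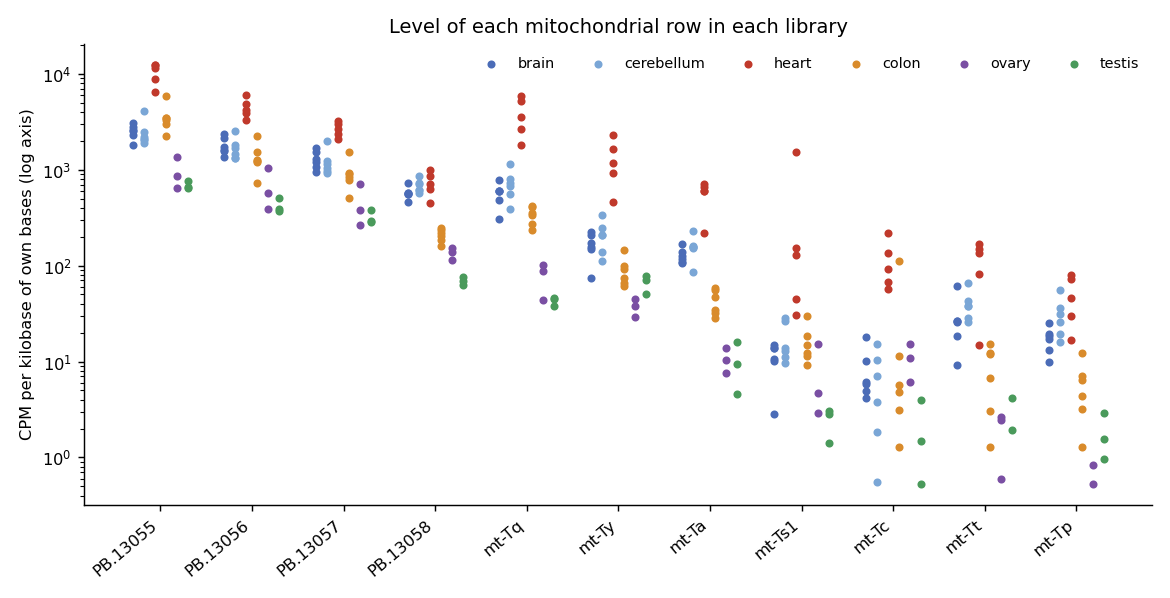
Level of the 11 mitochondrial rows that passed the filter on low counts, in CPM per kilobase of unshared bases on a log axis; each point is 1 library, coloured by tissue, and libraries at 0 are not drawn. PB.13055 stands highest in every tissue, and heart (red) lies at the top of most rows.

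Which rows differ between tissues was asked with edgeR's quasi-likelihood test, with each tissue set against the mean of the other 5 and p-values adjusted by Benjamini-Hochberg over all 29911 genes that passed the filter. The labels do not say that libraries of a group came from separate animals, so the p-values measure the spread between these libraries. The filter kept 11 of the 29 rows, namely 4 Iso-seq loci and 7 tRNA genes, and left out mt-Tn. In heart all 11 were higher, where 22.1% of all genes tested were called higher, and their median log2 fold change was 4.40, where that of all genes was −0.55. Without female heart 3 all 11 were still higher, with log2 fold changes from 2.43 to 5.73. Scaling by the total count alone shifted the median of all genes in this contrast by −0.48, and the 11 rows were then higher by 1.63 to 4.83.

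The coding loci of the plus strand were among the clear changes in heart. PB.13055 held 101800, 73867 and 54119 CPM in female hearts 1 to 3 and 95179 and 103221 CPM in the male hearts. The median was 21482 CPM in brain, 17863 in cerebellum and 28141 in colon, and the highest library outside heart, female colon 1, held 48593. Heart therefore did not overlap any other tissue, and the log2 fold change was 3.23 ± 0.183 (SE; adjusted p = 5e-14). PB.13056 held 21128, 13752 and 11611 CPM in the female hearts and 14832 and 17177 in the male hearts, again above all other libraries, of which the highest was at 8918. Its log2 fold change was 2.72 ± 0.188 (adjusted p = 2.44e-12).

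The loci of the minus strand rose too, with smaller log2 fold changes, a difference between rows that was not tested in this fit. PB.13057, with mt-Nd6, held 12101, 8837 and 7883 CPM in the female hearts and 9904 and 11328 in the male hearts, and the highest other library, female cerebellum 3, held 7572. Its log2 fold change was 2.48 ± 0.186 (adjusted p = 1.26e-11). PB.13058 held 754, 479 and 348 CPM in the female hearts and 550.5 and 665 in the male hearts. These overlapped brain, from 356 to 559 CPM, and cerebellum, from 435 to 659 CPM, although the contrast with the mean of all other tissues gave 2.24 ± 0.152 (adjusted p = 1.71e-12).

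The 7 tRNA genes had log2 fold changes in heart from 3.98 (mt-Tp) to 5.48 (mt-Ts1), each above the values of the 4 loci. mt-Tq, which reads glutamine codons, held 420, 191 and 128 CPM in the female hearts and 368 and 252 in the male hearts, and no other library passed 80.6. Its log2 fold change was 4.82 ± 0.230 (adjusted p = 1.51e-15). mt-Ty, for tyrosine, held 78.4, 61.6 and 30.7 CPM in the female hearts and 153 and 110 in the male hearts, above the 22.7 of the next library. mt-Ts1, for serine, rested in part on 1 library, since male heart 2 held 105.5 CPM (2176 counts) and the other 4 hearts held 2.12 to 10.5. Without male heart 2 its log2 fold change was 4.11 in place of 5.48, with the one remaining male heart library assumed to vary like the other groups. mt-Ta, mt-Tc, mt-Tt and mt-Tp rose by 4.49, 4.67, 4.43 and 3.98, and each of these 4 overlapped at least 1 library of another tissue. Female heart 3 was the lowest heart library for each of the 7 tRNA genes.

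In testis all 11 rows were lower, where 26.7% of all genes were called lower, with a median log2 fold change of −2.22 against 0.10 for all genes. PB.13058 was the only row whose testis libraries lay below every other library, with 48.3, 52.5 and 58.3 CPM, and its log2 fold change was −2.22 ± 0.255 (adjusted p = 2.14e-08). PB.13055 held 5315, 6325 and 5553 CPM in testis and overlapped ovary, with 11202, 5406 and 7172 CPM. Its log2 fold change was −1.84 ± 0.304 (adjusted p = 6.59e-06). PB.13056 and PB.13057 fell by 1.69 and 1.54 on the log2 scale. mt-Tq fell by 3.37 (adjusted p = 1.35e-07), the farthest of the 11, and held 2.67, 3.17 and 3.28 CPM. mt-Ty fell by 1.10 (adjusted p = 0.00452), the least of the 11, with 4.78, 3.43 and 5.20 CPM, values that overlapped colon, from 4.14 to 9.74 CPM. Without testis 2 its adjusted p was 0.0553. The calls of mt-Tc and mt-Tp in testis, at −2.66 and −2.09, were likewise lost without 1 testis library, testis 1 or 3 for mt-Tc and testis 3 for mt-Tp.

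In ovary 10 of the 11 rows were lower, where 19.8% of all genes were, and the remaining row, mt-Tc, had a log2 fold change of −0.56 (adjusted p = 0.671). PB.13055 fell by 2.07 (adjusted p = 4.36e-06), PB.13056 by 1.70, PB.13057 by 1.76 and PB.13058 by 1.83. mt-Ta fell by 3.51 (adjusted p = 1.89e-07), with 0.721, 0.522 and 0.961 CPM, and mt-Tq by 3.13, with 7.26, 3.09 and 6.23 CPM. mt-Ty held 2.99, 1.93 and 2.53 CPM, below every other library. mt-Ts1 fell by 1.86 with an adjusted p of 0.0422, a call that was lost without any of 8 libraries. mt-Tp had 1, 0 and 1 counts in the 3 ovaries, and the ratio of its CPM in ovary to that in the other tissues was 0.0193, with an exact 95% interval for counting error from 0.00233 to 0.0699. Ovary 1 held more mitochondrial RNA than the others, and without it the same number of rows was lower and the median log2 fold change was −2.67 in place of −2.07.

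In brain and cerebellum part of the rows rose. In brain 7 of 11 were higher, where 33.0% of all genes were, and in cerebellum 5 of 11, where 30.8% were. The control-region locus PB.13058 rose in both, by 1.20 ± 0.149 in brain (adjusted p = 1.04e-07) and by 1.33 ± 0.148 in cerebellum (adjusted p = 1.96e-08). Of the tRNA genes, mt-Tq, mt-Ta, mt-Tt and mt-Tp rose in both tissues, mt-Ta by 1.27 and 1.45 and mt-Tp by 1.46 and 2.30. The call of mt-Tt in brain was lost without male brain 1 (adjusted p = 0.0689). PB.13057 rose in brain by 0.62 (adjusted p = 0.00682), and PB.13056 by 0.55 (adjusted p = 0.0177), a call that was lost under DESeq2 size factors (adjusted p = 0.0864). PB.13055 had log2 fold changes of 0.17 in brain and −0.05 in cerebellum and was not called in either. With total-count scaling 8 rows were called in cerebellum in place of 5, and DESeq2 called 5 higher and 1, mt-Tc, lower (log2 −1.33). Whether brain and cerebellum differ was not tested for these rows.

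In colon 4 of 11 rows were called, where 59.3% of all genes were, 1 of them higher and 3 lower, where 28.2% and 31.1% of all genes were. PB.13055 rose by 0.56 ± 0.190 (adjusted p = 0.0122), with 18897 to 48593 CPM and a median of 28141 (n = 6). This call rested on female colon 1, without which the adjusted p was 0.0772. mt-Ty fell by 1.05 (adjusted p = 0.000669), mt-Ta by 0.85 (adjusted p = 0.00744) and PB.13058 by 0.73 (adjusted p = 0.000466). The 6 colon libraries of PB.13058 held 123 to 190 CPM, below every library of brain, cerebellum and heart and above every library of ovary and testis.

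**Figure D3:**
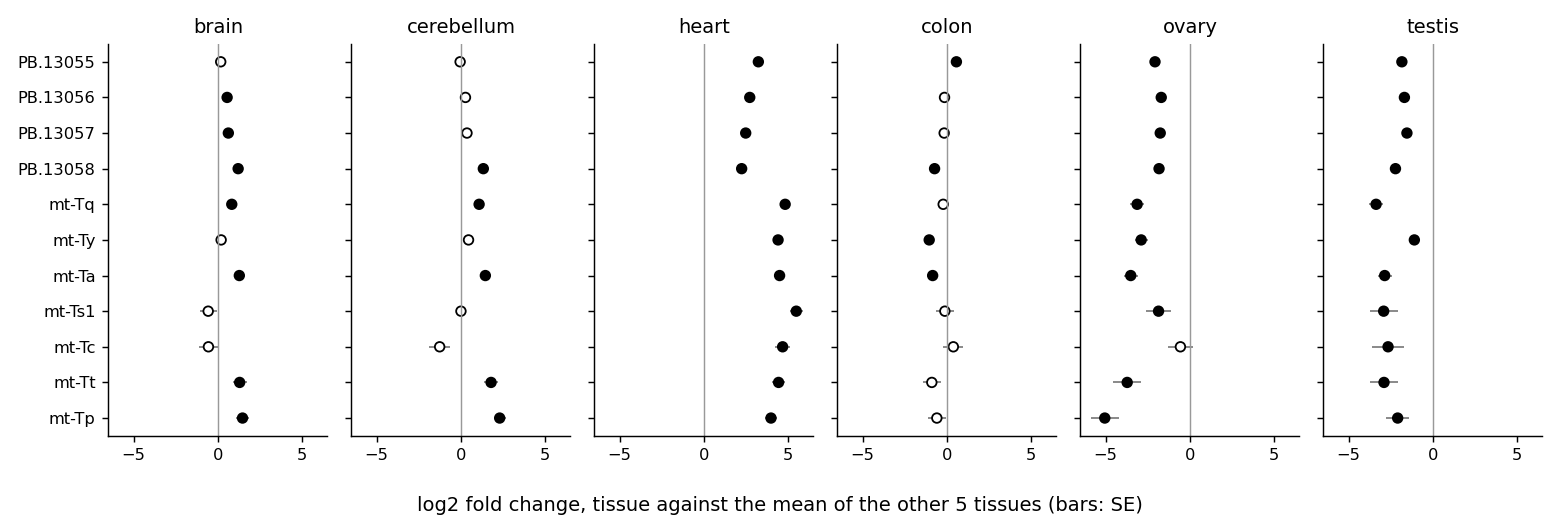
Log2 fold change of each of the 11 rows in each tissue against the mean of the other 5 tissues, with SE as bars; filled points passed an adjusted p of 0.05 in edgeR and open points did not. All 11 are filled to the right of 0 in heart and to the left in testis, and the tRNA rows lie farther out than the loci in heart.

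Sexes were compared within the 4 tissues that had both. None of the 11 rows was called by edgeR, where 0.104% of all genes were, and DESeq2 called none. The unadjusted p was under 0.05 for 1 row, mt-Ty, with a log2 difference of male against female of 0.52 ± 0.203 (adjusted p = 0.397). The log2 differences of the 4 loci lay between −0.17 and 0.04. For the interaction of sex with tissue, none of the 11 rows was called, where 0.0167% of all genes were, and DESeq2 called none. Here 1 row had an unadjusted p under 0.05, mt-Ts1 (edgeR, adjusted p = 0.574), the gene with the outlying male heart 2 library.

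Ratios between rows of the same library need no scaling, and 6, chosen once it was seen which rows held counts, were compared between tissues with a permutation test over libraries (100000 resamples, Benjamini-Hochberg over the 6), the pairs of tissues with exact two-sided permutation tests (Benjamini-Hochberg over the 15 pairs of a ratio). All 6 ratios differed between tissues, the highest adjusted p being 0.00359, for mt-Tt to PB.13056. Between ovary and testis, with 3 libraries each, the exact test cannot go below 0.10.

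The 2 coding loci of the plus strand did not keep the same proportion in all tissues. The log2 ratio of PB.13056 to PB.13055, downstream to upstream on the genome, was −1.74 ± 0.111 in brain, −1.77 ± 0.116 in cerebellum, −1.79 ± 0.187 in ovary, −1.93 ± 0.130 in testis, −2.44 ± 0.199 in heart and −2.64 ± 0.154 in colon (SD; n = 6, 6, 3, 3, 5 and 6; permutation test, adjusted p = 1.5e-05). The 5 hearts ran from −2.68 to −2.22 and the 6 colons from −2.88 to −2.42, and neither reached the lowest brain library, at −1.89. Heart was lower than brain by 0.70 and colon lower than brain by 0.90 (adjusted p = 0.00812 for both, exact permutation tests). The difference of 0.20 between heart and colon did not pass (exact permutation test, adjusted p = 0.136).

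The ratio between 2 loci of opposite strands had a narrower range of tissue means. PB.13057 lies opposite PB.13056 for much of its length, and their log2 ratio, minus to plus, was −0.64 ± 0.0979 in heart and −0.33 ± 0.0101 in testis, the lowest and the highest mean (SD; n = 5 and 3). The ratio differed over the 6 tissues (permutation test, adjusted p = 6e-05), and the 5 hearts, from −0.80 to −0.56, lay below the 3 testes, from −0.34 to −0.32. For this difference of 0.31 the exact permutation test gave p = 0.0179, the smallest that 5 against 3 libraries allow, and after adjustment over the 15 pairs it did not pass (adjusted p = 0.0714). Of the 15 pairs of tissues, 2 passed, brain over heart by 0.24 and cerebellum over heart by 0.25 (adjusted p = 0.0162 for both, exact permutation tests). The PB.13057 count stood at 0.64 of the PB.13056 count in heart and at 0.80 in testis, taking the means of the log2 ratios back to a linear scale. The 2 loci cover different bases (MT:10312-14139 and MT:11742-15288), and counts were not divided by length. These values are therefore ratios of loci and not of the strands of the same region.

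Within the minus strand, the control-region locus differed more. The log2 ratio of PB.13058 to PB.13057 was −3.10 ± 0.247 in cerebellum and −3.44 ± 0.176 in brain, and −4.20 ± 0.189 in heart, −4.38 ± 0.319 in colon and −4.50 ± 0.289 in testis. Both neural tissues were higher than heart, colon and testis (6 of 15 pairs, adjusted p at most 0.0298, exact permutation tests). In ovary the libraries stood at −4.64, −3.52 and −3.58, ovary 1 being the lowest.

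The log2 ratio of the tRNA gene mt-Tq to PB.13057 was −5.31 ± 0.502 in heart and −8.61 ± 0.247 in testis (SD; n = 5 and 3), which on a linear scale is 0.0252 and 0.00255 mt-Tq counts for each count of PB.13057. Of the 15 pairs of tissues, 13 passed, the exceptions being brain with colon and ovary with testis. The ratio of mt-Ty to mt-Tq, 2 tRNA genes of the same strand, was turned round in testis, where mt-Ty had more counts than mt-Tq in all 3 libraries, with log2 ratios of 0.84, 0.11 and 0.66. In the other 26 libraries mt-Ty had fewer, with means from −2.02 ± 0.400 in colon to −1.08 ± 0.351 in ovary. Testis exceeded brain by 2.42, cerebellum by 2.41 and colon by 2.55 (adjusted p = 0.0298 for each, exact permutation tests) and heart by 2.25 (adjusted p = 0.0383, exact permutation tests). Ovary also stood above these tissues except heart. Brain, cerebellum and colon minus ovary gave −0.80, −0.79 and −0.94 (adjusted p = 0.0298 for each, exact permutation tests). Heart with ovary (adjusted p = 0.327) and ovary with testis (adjusted p = 0.188) did not pass the exact permutation tests.

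**Figure D4:**
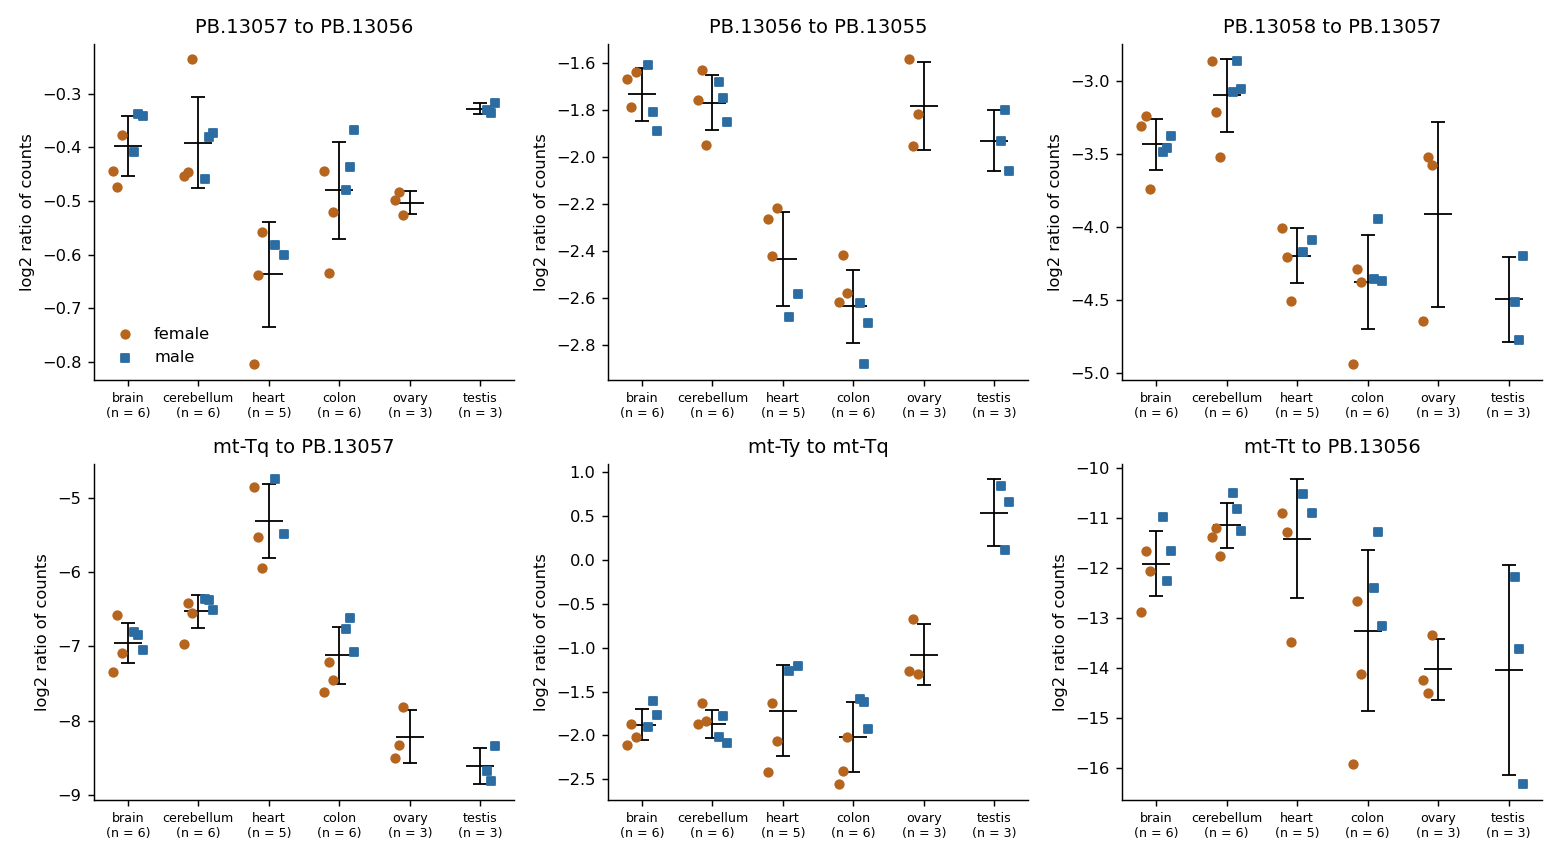
Log2 ratio of counts between 2 rows of the same library for 6 pairs of rows, by tissue; circles are female and squares male libraries, and bars give the mean and SD. Heart and colon lie low for PB.13056 to PB.13055, and the 3 testis libraries alone lie above 0 for mt-Ty to mt-Tq.

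Of these ratios, 3 differed between the sexes in an exact two-sided permutation test within the 4 tissues (80000 arrangements, Benjamini-Hochberg over the 6). The test treats libraries of different tissues as independent. The labels do not say whether tissues came from the same animals, and if they did, these p-values would be too small. The log2 ratio of PB.13056 to PB.13055 was 0.15 lower in males (exact permutation test, adjusted p = 0.0388), by 0.33 in heart and 0.20 in colon, and the difference was 0.02 in the other direction in cerebellum. The ratio of mt-Ty to mt-Tq was 0.37 higher in males (exact permutation test, adjusted p = 0.0324), with 0.80 in heart, 0.62 in colon and 0.23 in brain, and −0.18 in cerebellum. The ratio of mt-Tt to PB.13056 was 1.07 higher in males (exact permutation test, adjusted p = 0.0324) and higher in males in all 4 tissues, but mt-Tt had few counts, with 1, 14 and 3 in the female and 15, 19 and 6 in the male colons. Leaving out any 1 library kept the unadjusted p of these 3 ratios under 0.05. Marker sums also varied between libraries in the tissues with the largest differences in mt-Ty to mt-Tq. The sums of the sexes overlapped, and whether they differ by sex was not tested. The colon smooth muscle markers Myh11, Des and Actg2 summed to 5043, 6506 and 9956 CPM in the female colons and to 15670, 11290 and 7217 CPM in the male ones, where the log2 ratios of mt-Ty to mt-Tq were −2.56, −2.41 and −2.02 in females and −1.58, −1.62 and −1.92 in males. The ratios of the sexes did not overlap, and within each sex the order of the 3 colons was the same in both measures. The red cell markers summed to 15560, 15390 and 4503 CPM in the female hearts and to 7247 and 5724 CPM in the male ones. The part of these markers in the sex differences was not tested. No row by itself was called between the sexes.

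The nuclear genes that transcribe, process and degrade mitochondrial RNA were measured in the same fit. Of 51 such genes, all of which passed the filter, 40 (78.4%) were called in heart, 38 higher and 2 lower, where 51.7% of all genes were called, 22.1% higher and 29.6% lower. The median log2 fold change of the 51 was 0.75. Without female heart 3, 40 were higher and 3 lower. The split depended on the scaling: with total counts, under which the median of all genes moved by −0.48, 23 were higher and 14 lower. Ppargc1a, a coactivator that drives mitochondrial biogenesis, rose by 2.68 ± 0.129 (adjusted p = 1.73e-15), with 52.3 to 91.6 CPM in heart and 2.86 to 79.6 elsewhere. Hsd17b10, a subunit of the RNase P that cuts the 5′ ends of mitochondrial tRNAs, rose by 2.53 ± 0.127 (adjusted p = 3.99e-15), with 145 to 223 CPM in heart and 26.0 to 140 elsewhere. The 2 genes that fell were Top1mt, the mitochondrial topoisomerase, by 0.54 (adjusted p = 0.00536), and Nrf1, a transcription factor of nuclear genes for mitochondrial proteins, by 0.29 (adjusted p = 0.0167). The call of Nrf1 was lost without testis 2 (edgeR, log2 −0.19, adjusted p = 0.125) and with no filter on low counts (edgeR, log2 −0.28, adjusted p = 0.0597). It was also lost without male heart 1 (log2 −0.31) or male heart 2 (log2 −0.29), which leaves a single male heart library.

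By role, in heart 9 of 15 genes of transcription and mtDNA maintenance rose and 1 fell, 13 of 16 genes of RNA processing and tRNA maturation rose and none fell, 11 of 14 genes of RNA stability and decay rose and none fell, and of 6 nuclear regulators 5 rose and 1 fell, where 22.1% of all genes rose and 29.6% fell. With total counts the whole list had 23 genes higher and 14 lower in heart, so these counts by role hold for the TMM scaling, and they were not computed for total counts. The row of Fastkd5 also holds Ubox5.

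In testis, the tissue with the lowest mean share of mitochondrial RNA, 31 of the 51 (60.8%) were called, where 67.1% of all genes were, 13 higher and 18 lower, where 40.4% and 26.7% of all genes were. Nsun4, a methyltransferase of mitochondrial rRNA, rose by 4.51 ± 0.130 (adjusted p = 7.81e-21), with 207 to 276 CPM in testis and 4.80 to 29.4 elsewhere. Tfam, which packages mtDNA and starts its transcription, rose by 2.17 ± 0.111 (adjusted p = 2.08e-15), with 112 to 129 CPM in testis and 23.3 to 50.0 elsewhere. Ppargc1a fell by 3.02 (adjusted p = 1.36e-11) and its relative Ppargc1b by 2.82 (adjusted p = 4.6e-10). Of the 6 nuclear regulators 4 fell and none rose, while genes of transcription and mtDNA maintenance were split, 6 higher and 6 lower of 15. In brain 7 of the 51 were higher and 17 lower, where 33.0% and 23.1% of all genes were, in cerebellum 7 and 20 (30.8% and 22.0%), in colon 8 and 31 (28.2% and 31.1%) and in ovary 10 and 17 (22.4% and 19.8%). Single libraries moved the count in brain, to 2 higher and 24 lower without testis 2 and to 4 higher without male brain 2 or male brain 3. Without testis 2 the split in testis turned to 15 higher and 14 lower. With total counts the split in ovary turned to 26 higher and 6 lower and that in testis became 11 and 24. With DESeq2 size factors the split was 18 higher and 17 lower in testis and 2 and 24 in brain. None of the 51 was called between the sexes or for the interaction, by edgeR or by DESeq2, and 6 and 3 of them in edgeR had an unadjusted p under 0.05.

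**Figure D5:**
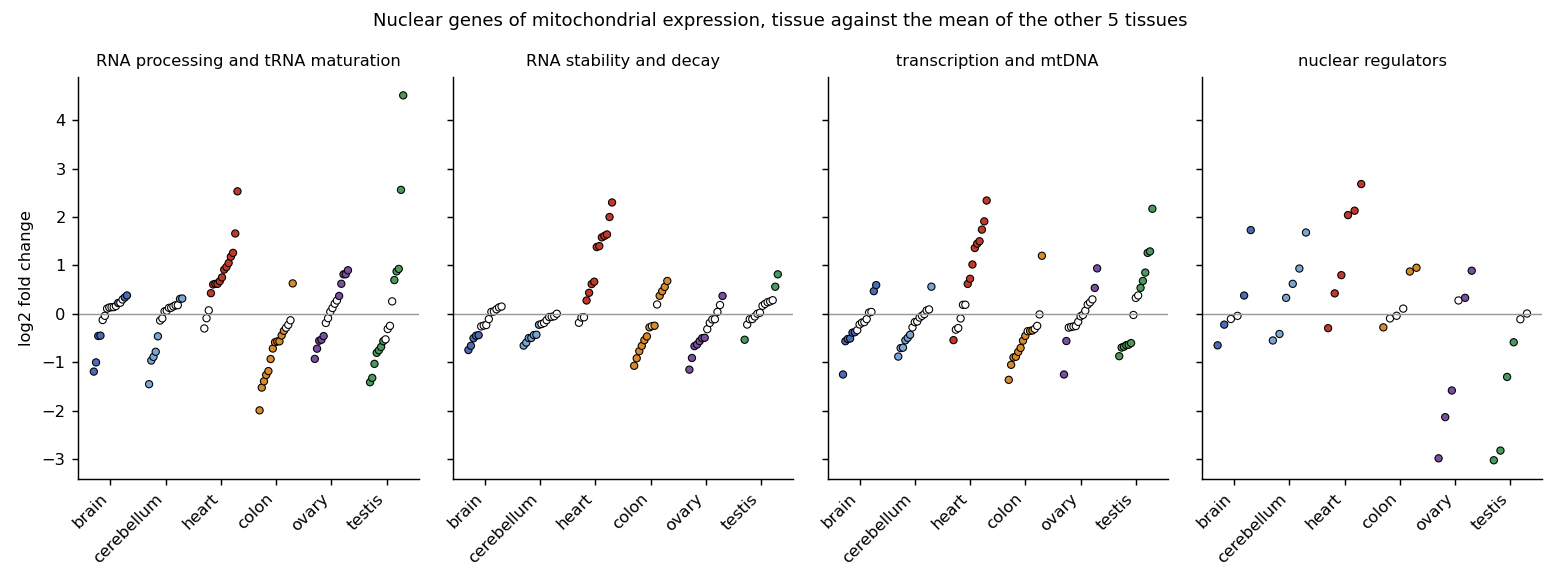
Log2 fold change of the 51 nuclear genes of mitochondrial expression in each tissue against the mean of the other 5, in 4 lists by role; each point is 1 gene, filled where the adjusted p passed 0.05. In heart most genes lie above 0, and in testis 4 of the 6 nuclear regulators lie low while Nsun4 lies far above the rest.

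Near-identical copies of mitochondrial genes in the nuclear genome can take or lose reads. In GENCODE M21, 10 nuclear pseudogenes share at least 100 exact bases with a member, and 9 have a row in the count table. Gm28437 shares 99.9% of the 100-base windows of mt-Co3, Gm28661 99.5% of those of mt-Co2, Gm10925 99.5% of those of mt-Atp6, Gm10222 98.5% of those of mt-Nd4l and Gm28438 97.6% of those of mt-Nd3. Gm28439 shares 60.8% of the windows of mt-Nd4, Gm13341 15.0% of those of mt-Co2, Gm13340 5.53% of those of mt-Co1 and Gm13339 3.19% of those of mt-Nd2. Gm29216, with 26.3% of those of mt-Co1, was not used here. The authors kept uniquely mapped reads, so reads from such windows are uncertain between the copies. All the genes named lie in PB.13055, and PB.13057 also runs across most of mt-Nd4 on the opposite strand, so that its counts and its ratios share this limit. The 9 rows together held 18901 counts over the 29 libraries, 0.0679% of the counts of the mitochondrial rows, and the highest single value was 61.6 CPM, for Gm28437. No annotated nuclear transcript shared such a stretch with mt-Nd5, mt-Cytb or mt-Nd6.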

How the data were processed

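Total RNA of adult C57BL/6J tissues was depleted of rRNA (Ribo-off) and sequenced as stranded dUTP libraries. The submitters' processing notes name FastQC 0.11.8, MultiQC 0.9, HISAT2 2.0.5, featureCounts 1.6.3 and the build mm10. Per the study's methods, the authors joined Iso-seq loci with the ENSEMBL genes that did not overlap them on the same strand, yet the table has rows for 12 mitochondrial ENSEMBL genes with at least 90 percent of their bases inside such a locus. The authors kept uniquely mapped reads and deposited whole-number counts per gene without normalization. Whether counting used strand is not given in the sources used here.

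Tissue, sex and replicate number came from the labels. The deposited counts were analysed with edgeR 4.0.16 in R 4.3.3: filterByExpr by group, TMM, and 1 quasi-likelihood fit over 29 libraries with 1 mean for each of 10 groups of tissue and sex. Benjamini-Hochberg adjustment ran over 29911 genes, with a threshold of 0.05. On simulated counts of these genes, 2-fold changes in heart were recovered for 52% of changed genes and 4-fold changes for 79%. CPM used the total count of the library, and per-kilobase values used bases that no other gene of the strand shares. Log2 ratios took a pseudocount of 0.5 and were tested by permutation over libraries (SciPy 1.17.1), where the smallest unadjusted p is 1e-05. Intervals and floors cover counting error only.

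Members and lists were chosen with earlier results of these data known. The planned ratios between single genes and shares of the 13 mRNAs could not be computed, as these genes have no rows, and ratios between rows with counts replaced them. By rule, tRNA genes with a mean of at least 10 counts are named with values, as are nuclear pseudogenes that share 100 exact bases with a member, and, of the machinery list, up to 2 genes a direction with the smallest adjusted p in heart and in testis. Alternatives were DESeq2 1.42.0, its size factors, total counts, nuclear genes alone, no filter, blocks, a pseudocount of 5, and leaving out each library. All count columns were used.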

Additional observations from a re-analysis of the deposited data

Results flagged for a closer look

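In groups of 4 to 10 libraries, 76 sets of values were screened for a highest or lowest library that stood apart from the rest by Dixon's test, and 10 were found, where chance at 1 in 20 would give 3.8. Female cerebellum 3 held 5.17% of its counts on mitochondrial rows, where the other 5 cerebellum libraries held 2.46% to 3.25%, and the same library stood apart for PB.13055 (34500 CPM) and PB.13057 (7570 CPM). Female colon 1 held 48600 CPM of PB.13055. Female heart 3, the library with atrial and fat markers, was low for mt-Ta at 15.0 CPM, where the others held 41.2 to 49.3, and for the log2 ratio of mt-Tt to PB.13056, at −13.5. Male heart 2 held 106 CPM of mt-Ts1, where the others held 2.12 to 10.5. Male colon 1 held 7.46 CPM of mt-Tc, where the other colon libraries held 0.0852 to 0.761, and male brain 1 held 4.12 CPM of mt-Tt, where the others held 0.622 to 1.76. In female cerebellum 1 the log2 ratio of mt-Tq to PB.13057 was −6.96, where the others lay between −6.55 and −6.36. The source of these values was not tested.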

How the results depend on the processing

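Of 48 calls of a mitochondrial row in a tissue, 41 kept direction and call in each setting run and none changed direction. The other 7 lost the call in at least 1 setting, with the cause not tested: PB.13056 in brain (log2 0.41 with DESeq2 or its size factors, 0.42 to 0.48 without female brain 3, male brain 1 or testis 2), mt-Tt in brain (0.99 without male brain 1), PB.13055 in colon (0.43 without female colon 1), mt-Ts1 in ovary (−1.31 with total counts, −1.84 to −1.49 without any of 8 libraries), and in testis mt-Tc (−2.24 and −2.49 without testis 1 and 3), mt-Ty (−0.89 without testis 2) and mt-Tp (−1.80 without testis 3). With total counts 8 rows were called in cerebellum in place of 5. Leaving out 1 library moved the number called to 5 to 7 in brain, 5 to 6 in cerebellum, 3 to 5 in colon, 9 to 10 in ovary and 9 to 11 in testis, and kept 11 in heart. The sex difference of the log2 ratio of PB.13057 to PB.13056 was 0.04 to 0.07 without 1 library, and passed an unadjusted p of 0.05 without female cerebellum 3 (exact permutation p = 0.0134). That of mt-Tq to PB.13057 was 0.22 to 0.41 and missed it without any of 14 of 23 libraries. With a replicate block 11 rows were called in heart, and no call of a row was lost. Libraries of different groups with the same replicate number did not deviate together (median correlation −0.00197, 5 of 126 pairs over 0.1). Whether this check could reveal libraries of the same animal was not tested, so it does not settle whether the numbers pair them. Libraries of 1 sex whose library codes differ only in the last digit had a median correlation of 0.0141 (4 of 53 pairs over 0.1, against 2 of 115 other pairs of the same sex). The labels do not say what the codes mean. With these sets of libraries as a block the number of rows called was the same in each tissue, 11 in heart. The permutation tests of sex treat libraries of different tissues as independent. The planned ratios between single genes and shares of single mRNAs were not run, for want of rows. No 2 libraries of a group were identical. Depth limits the tRNA genes most: mt-Tp had 2 counts in all of ovary.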
